A study of Drosophila melanogaster with 2 samples.

Results

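Exonic Bab2 peaks away from promoters are the peaks whose summit lay in an exon of a protein-coding transcript and more than 500 bp from every protein-coding transcription start site (TSS). They numbered 2923 of the 24109 peaks on the main chromosome arms in the list called from both replicates pooled. Class and distance came from the summit position and the gene annotation alone, so the strength of a peak played no part in choosing it. Of these 2923 members, 83 were also in the optimal list, the shorter set of peaks that the authors kept by the irreproducible discovery rate procedure, and these 83 are named here where the results turn on them. The peaks come from ChIP-seq, which sequences the DNA recovered with a protein by an antibody. Chromatin came from whole Drosophila melanogaster embryos collected at 0 to 24 h, male and female pooled, of a bab2-GFP line. In this line Bab2 is made as a fusion that carries eGFP at the C-terminal end, and precipitation was through the GFP tag rather than through Bab2 itself. All embryos form 1 group, sampled as 2 biological replicates (2 and 3 by their labels) of the same line. No condition could be compared, and a control precipitation was not analysed here. A whole-embryo list averages over all cell types and over the whole collection window.

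Bab2 (bric-à-brac 2) is a BTB-domain transcription factor known in the fly for leg segmentation, for the terminal filaments of the ovary and for abdominal pigmentation. Transcription factors are usually studied at promoters and at enhancers in introns or between genes. Exons hold 3 kinds of sequence: the coding sequence that is translated, the 5' untranslated region (UTR) that precedes it and the 3' UTR that follows it. Coding sequence keeps its codons as well as any regulatory sequence in it, and in the fly it is richer in G and C than introns or UTRs.

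UTRs held most of the optimal members, but only windows at summits in coding sequence are printed, and these come first. Each holds 101 bases of dm6 centred on a summit, from the RefSeq release 6 assembly, read 5′ to 3′ on the strand of the host gene. Capitals mark bases that are coding in at least 1 transcript, and lower case marks intron. The first set holds coding summits of the optimal list whose window has no UTR base, in order of signal. The strongest of that kind, in otp, has a window that is coding throughout and is described further down without its sequence.
klar (chr3L:506162-506262, minus strand): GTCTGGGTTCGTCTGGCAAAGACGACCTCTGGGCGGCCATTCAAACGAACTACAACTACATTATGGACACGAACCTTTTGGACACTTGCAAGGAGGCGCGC
bif (chrX:11681705-11681805, plus strand): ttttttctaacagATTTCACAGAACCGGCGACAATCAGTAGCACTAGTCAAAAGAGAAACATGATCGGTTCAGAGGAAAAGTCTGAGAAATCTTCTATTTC
l(3)mbn (chr3L:6124795-6124895, minus strand): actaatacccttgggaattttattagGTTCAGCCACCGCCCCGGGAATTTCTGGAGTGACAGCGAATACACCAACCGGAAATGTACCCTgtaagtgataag
CG31368 (chr3R:11888480-11888580, plus strand): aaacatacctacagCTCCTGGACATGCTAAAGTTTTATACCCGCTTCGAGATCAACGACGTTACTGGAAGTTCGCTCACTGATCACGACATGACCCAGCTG
CG31259 (chr3R:8524421-8524521, plus strand): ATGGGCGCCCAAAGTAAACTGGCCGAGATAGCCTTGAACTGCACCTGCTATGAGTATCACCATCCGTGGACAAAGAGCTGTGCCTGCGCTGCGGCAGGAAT
PNUTS (chr2L:871671-871771, plus strand): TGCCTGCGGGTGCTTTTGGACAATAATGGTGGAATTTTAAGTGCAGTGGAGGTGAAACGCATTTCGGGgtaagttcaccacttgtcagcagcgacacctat
Ubr1 (chrX:16967541-16967641, minus strand): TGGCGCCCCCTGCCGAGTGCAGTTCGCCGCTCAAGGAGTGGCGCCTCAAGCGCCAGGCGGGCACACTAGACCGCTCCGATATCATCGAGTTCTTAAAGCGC
hth (chr3R:10605186-10605286, minus strand): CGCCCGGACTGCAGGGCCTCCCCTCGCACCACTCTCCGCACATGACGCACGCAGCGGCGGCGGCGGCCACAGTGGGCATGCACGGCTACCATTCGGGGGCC
Of these 8 windows, 4 cross an exon boundary: bif and CG31368 run out of an intron into coding sequence, PNUTS runs from coding sequence into an intron, and l(3)mbn holds a coding exon of 63 bp whole, with intron on both sides. The summit lay 108 bp from the nearest non-coding base in klar, which codes for a protein of nuclear migration, 51 bp in CG31259, 82 bp in Ubr1, a ubiquitin ligase, and 133 bp in hth, which codes for the homeodomain protein Homothorax. The GC content of the windows ran from 37.6% in bif to 74.3% in hth.

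The second set holds the 3 strongest summits that lay deeper in coding sequence, more than 212 bp from any non-coding base. The distance of 212 bp is the arm of a usual peak, since most peaks were 424 bp wide. It was chosen after the values had been seen.
CG33978 (chr4:167715-167815, minus strand): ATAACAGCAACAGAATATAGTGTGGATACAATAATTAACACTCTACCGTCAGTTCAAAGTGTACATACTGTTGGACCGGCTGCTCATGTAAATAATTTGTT
Prosbeta2R2 (chr3R:5218261-5218361, minus strand): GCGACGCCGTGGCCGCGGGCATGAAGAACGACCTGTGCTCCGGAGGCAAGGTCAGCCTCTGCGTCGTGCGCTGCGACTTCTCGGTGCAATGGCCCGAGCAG
Cbl (chr3L:8429869-8429969, plus strand): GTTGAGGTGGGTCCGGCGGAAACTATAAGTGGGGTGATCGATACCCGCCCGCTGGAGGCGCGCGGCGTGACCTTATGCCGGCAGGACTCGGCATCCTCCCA
None of these 3 was in the optimal list. CG33978 had a pooled signal of 66.9, with 31.0 in replicate 2 and 29.0 in replicate 3, and its summit lay 667 bp from the nearest non-coding base in an exon of 7192 bp. Prosbeta2R2, a proteasome subunit gene, had 66.7 (32.9 in replicate 2, 30.1 in replicate 3) and Cbl, a ubiquitin ligase gene, had 61.6 (20.2 in replicate 2, 41.5 in replicate 3). The GC content was 35.6% in the CG33978 window, 68.3% in Prosbeta2R2 and 65.3% in Cbl.

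Exonic peaks were rare among strong Bab2 peaks and close to their share of the genome among weak ones. Exons more than 500 bp from a TSS cover 25.8 Mb, or 19.3% of the bases of the main arms, and held 12.1% of pooled summits (95% Wilson interval 11.7 to 12.5%). When the pooled list was ranked by signal, the value of enrichment that the authors give each peak, exons held 1.62% of the strongest decile, 1.99% of the second and 3.07% of the third. The share was 6.93% in the fourth, 13.1% in the fifth and 15.2% in the sixth. The last 3 deciles held 19.9%, 19.9% and 21.7%, which is near the share of bases. The list is relaxed by design and holds peaks and background, so its last deciles contain peaks with little enrichment. The same course was seen in the list of each replicate, in which exons held 3884 summits (14.2%) in replicate 2 and 3512 (13.6%) in replicate 3. In the strongest decile, 44 of 2738 summits were exonic in replicate 2 and 34 of 2581 in replicate 3.

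**Figure D1:**
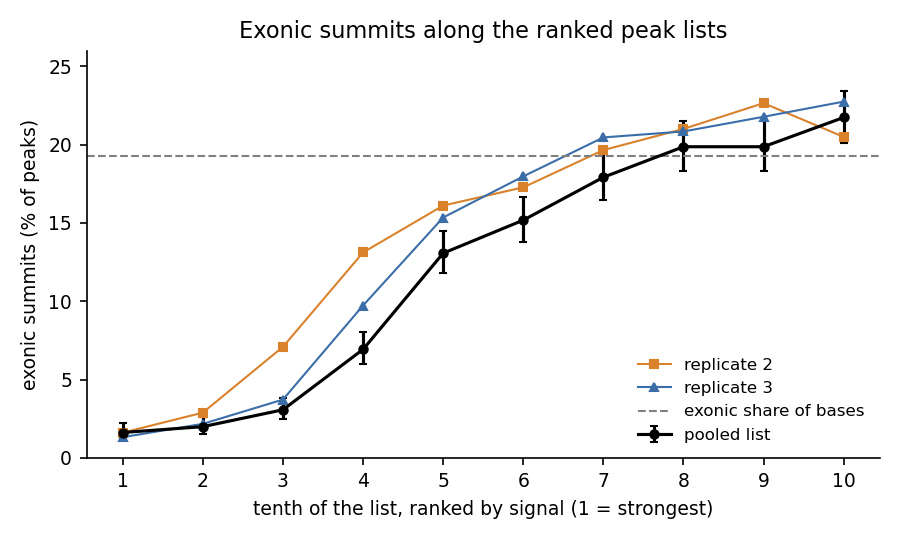
Share of exonic summits in each decile of the pooled list (black, bars are 95% Wilson intervals), of replicate 2 (orange) and of replicate 3 (blue), each list ranked by its own signal, with the exonic share of bases as a dashed line. All 3 lists start below 2% in the strongest decile and end above 20% in the weakest.

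Of the 2923 members, 83 were in the optimal list, a share of 2.84% (2.30 to 3.51%), against 19.6% of all pooled peaks. The share was 30.8% of promoter summits, 18.4% of intronic summits and 15.5% of intergenic summits. The exonic share minus that of intergenic summits, the nearest class, was -12.7 percentage points (95% Newcombe interval -13.9 to -11.5). Set against bases, exonic summits of the optimal list numbered 3.22 per Mb, against 142.8 per Mb at promoters, 32.4 in introns and 18.5 between genes. The 4720 optimal peaks are the 4720 strongest of the pooled list, so this share and the signal describe the same ranking. The weakest member in the optimal list had a signal of 76.3 and the strongest outside it 75.9.

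The signal of exonic peaks was low and narrow in range. The median was 30.3 (95% order-statistic interval 30.1 to 30.7) in members, against 48.2 at promoters, 37.8 in introns and 34.9 in intergenic sequence. The middle 50% of members lay between 27.03 and 36.3, close to the lowest signal in the list, 24.7. The strongest member had 836 and stood at rank 55 of the pooled list. Only 119 members (4.07%) had a q-value of 1% or less by the authors' own column, against 24.8% of all pooled peaks. The share was 37.5% of promoter summits, 24.0% of intronic summits and 20.35% of intergenic summits.

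Both replicate lists held all 83 members of the optimal list but a minority of the weak members. A summit was found within 200 bp in replicate 2 for 67.0% of members, against 78.3% of all pooled peaks. The share found in replicate 3 was 64.8%, against 77.6% of all pooled peaks. The same replicate summit could match several pooled summits. A weak member beside a strong peak could therefore be counted as found, with the signal of the strong peak. Both lists held 36.9% of members (1078), against 59.0% of all pooled peaks. A further 881 members were in the list of replicate 2 alone, 815 in that of replicate 3 alone and 149 in neither. Since the pooled list was made from the reads of both replicates, these shares are not an independent repeat of the pooled calls. The optimal list holds the strongest pooled peaks, so the presence of its members in both lists is no separate support. Over a signal of 100, both lists held 100% of members, 99.69% of promoter, 99.65% of intronic and 100% of intergenic summits. From a pooled signal of 30 upward, members were found about as often as summits of the other classes. Between 30 and 40, 48.2% of members were in both replicate lists, against 46.8% of promoter, 48.4% of intronic and 49.1% of intergenic summits. Between 40 and 60 the shares were 83.7% for members, 83.3% for promoter, 86.2% for intronic and 86.6% for intergenic summits. Under 30, where 1394 members lay, the share was 10.8% (9.31 to 12.6%), against 18.6%, 14.3% and 12.8% in the same order.

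Across members found in both lists the 2 signals had a Spearman rank correlation of 0.74 in the 83 optimal members and of 0.18 in the 995 others. All of these points share the same 2 libraries, and the optimal members span a wider range of signal, so the values describe the lists and carry no test. In the optimal members, replicate 2 ran from 27.3 over a median of 54.3 to 373, and replicate 3 from 20.0 over a median of 58.5 to 469. The optimal member ranked lowest in replicate 3 was the 3' UTR peak of CG12831, with 58.5 in replicate 2 (rank 2315) and 20.0 in replicate 3 (rank 12363). The one ranked lowest in replicate 2 was that of lwr, which codes for the SUMO-conjugating enzyme, with 27.3 in replicate 2 (rank 7237) and 63.3 in replicate 3 (rank 2784). Signals of replicate lists and of the pooled list are on separate scales and were compared only within a list.

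**Figure D2:**
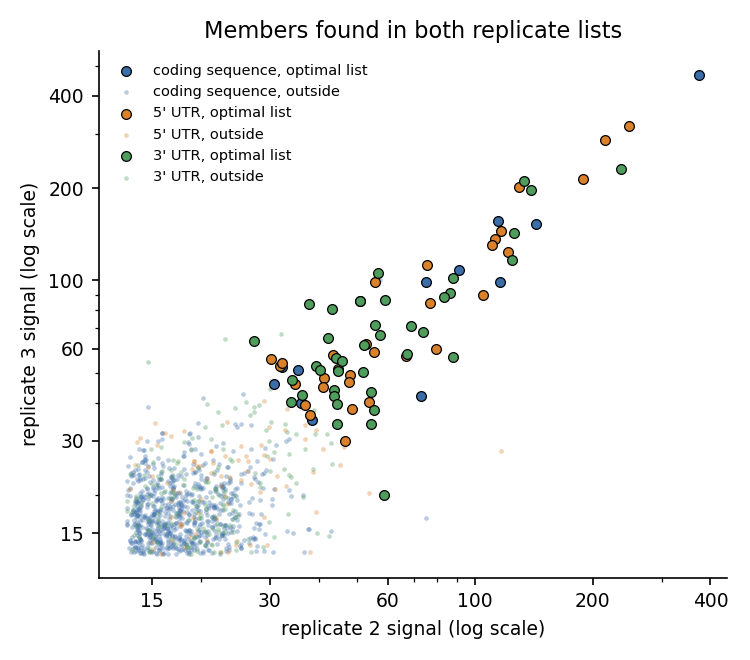
Signal in replicate 2 (x axis) and replicate 3 (y axis, both log scales) of the members found in both lists, coloured by kind of exon, with large outlined points for the optimal list. The optimal members spread along the diagonal up to 373 in replicate 2 and 469 in replicate 3. Most of the other members form a cloud without a clear slope near the low end of both axes. The highest values outside the optimal list, 124.7 in replicate 2 and 116.4 in replicate 3, equal those of the optimal peak in stas.

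Coding sequence held most of the weak exonic peaks and few of the strong ones. Of the 2923 members, 2236 (76.5%) had their summit in coding sequence, which makes up 73.2% of the exonic bases in question. A 3' UTR held 469 members (16.0%, with 23.5% of bases), a 5' UTR held 214 (7.32%, with 3.20% of bases) and 4 lay in exons of neither kind. Where transcripts differed, coding sequence took precedence, then 5' UTR. Only the summit decided the class. Of the 83 optimal peaks, 44 (53.0%) were exonic over their whole width and 26 (31.3%) reached an intron. In the other 2840 the shares were 59.5% and 38.0%. In the optimal list coding sequence came last instead of first: 39 of the 83 members lay in a 3' UTR (47.0%), 32 in a 5' UTR (38.6%) and 12 in coding sequence (14.5%, 8.47 to 23.6%). The share of members in the optimal list was 0.537% in coding sequence (0.307 to 0.936%), 14.95% in 5' UTRs (10.8 to 20.3%) and 8.32% in 3' UTRs (6.14 to 11.2%). The interval of coding sequence lies below those of both kinds of UTR, which overlap each other.

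The same composition was seen in each replicate taken alone. Among the 4720 strongest peaks of replicate 2, 95 were exonic, with 14 in coding sequence (14.7%), 36 in a 5' UTR and 45 in a 3' UTR. Among the 4720 strongest of replicate 3, 78 were exonic, with 13 in coding sequence (16.7%), 27 in a 5' UTR and 38 in a 3' UTR. Among the weaker peaks, coding sequence held 74.98% of the exonic summits of replicate 2 and 82.4% of those of replicate 3. In the pooled list the change came between signals of 40 and 100. Coding sequence held 14.3% of members over 100, 16.9% between 60 and 100, 66.9% between 40 and 60, 79.5% between 30 and 40 and 82.4% under 30.

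**Figure D3:**
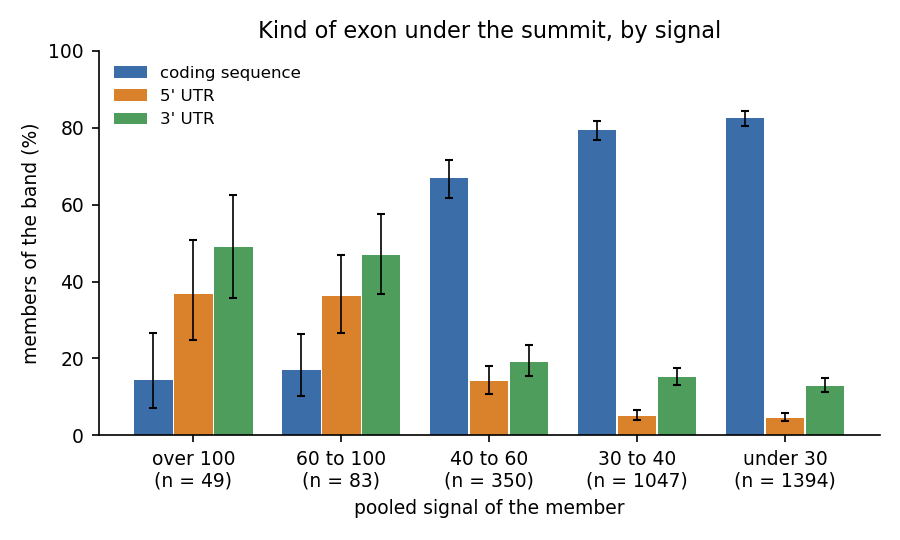
Share of members (%) with the summit in coding sequence (blue), 5' UTR (orange) or 3' UTR (green), in bands of pooled signal, with 95% Wilson intervals and the number of members under each band. Coding sequence holds 14.3% of the members over 100 and 82.4% of those under 30.

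Per Mb of its own sequence, the 5' UTR held the most members. Members numbered 260 per Mb in 5' UTRs, 118 in coding sequence and 77.5 in 3' UTRs. Optimal members numbered 38.8 per Mb in 5' UTRs, 6.44 in 3' UTRs and 0.636 in coding sequence. In 5' UTRs the density depended on the distance from a TSS: 63.6 optimal members per Mb at 500 to 1000 bp (exact Poisson interval 40.3 to 95.4), 27.1 at 1000 to 2000 bp (8.81 to 63.3) and 14.4 beyond 2000 bp (3.92 to 36.9). The first and last of these intervals do not overlap. In coding sequence it was 0.468, 0.758 and 0.644 over the same 3 ranges, and in 3' UTRs 4.51, 10.1 and 5.43, with overlapping intervals in both. Of the 83 optimal members, 30 (36.1%) lay in sequence that is intronic in another transcript of a protein-coding gene, against 413 of the 2840 others (14.5%). These groups differ in their kinds of exon, since 5' UTRs held 38.6% of the optimal members and 6.41% of the others. Most of the 30 lay in 5' UTRs and none in coding sequence, so the gap is not a trait of every kind of exon.

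All 12 optimal summits in coding sequence lay close to its edge. Their distance to the nearest base that no transcript translates ran from 3 to 151 bp with a median of 37.5 bp. The other 2224 coding members had a median of 195.5 bp, and coding positions taken every 500 exonic bases one of 170 bp. Within 212 bp of a non-coding base lay 12 of the 12 optimal members, against 53.3% of the other coding members (51.3 to 55.4%) and 56.5% of the coding positions. Of the 1038 members deeper than 212 bp, 0 were in the optimal list, which allows a share of up to 0.289% by 3 counts, against 1.00% (0.574 to 1.74%) of the 1198 members nearer the edge. The deeper share minus the nearer one was -1.002 percentage points (Newcombe interval -1.74 to -0.437). The cut at 212 bp was chosen after these distances had been seen, so the interval describes the counts and carries no test. Split further, the optimal share was 0 beyond 500 bp (255 members, which allows up to 1.18%) and 0 at 212 to 500 bp (783 members, up to 0.383%), against 0.580% at 100 to 212 bp (0.198 to 1.69%), 0.619% at 50 to 100 bp (0.170 to 2.23%) and 1.96% within 50 bp (0.95 to 3.98%), so single neighbouring ranges were not set apart. The density of members had no single course with depth, with 71.6 per Mb beyond 500 bp, 169 at 212 to 500 bp, 136 at 100 to 212 bp, 109 at 50 to 100 bp and 90.95 within 50 bp. The median signal was 29.6 in the members deeper than 212 bp and 29.9 in the nearer ones. The strongest deeper member had a signal of 66.9 and the strongest nearer one 836. In the lists of single replicates, 3 of the 14 coding summits among the 4720 strongest peaks of replicate 2 and 0 of the 13 of replicate 3 lay deeper than 212 bp. Those 3 were in Hsp110, Tdg and eIF4G1, with 36.6, 42.9 and 47.9 in replicate 2. The nearest pooled peaks had signals of 45.3, 58.5 and 29.8 and were outside the optimal list.

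**Figure D4:**
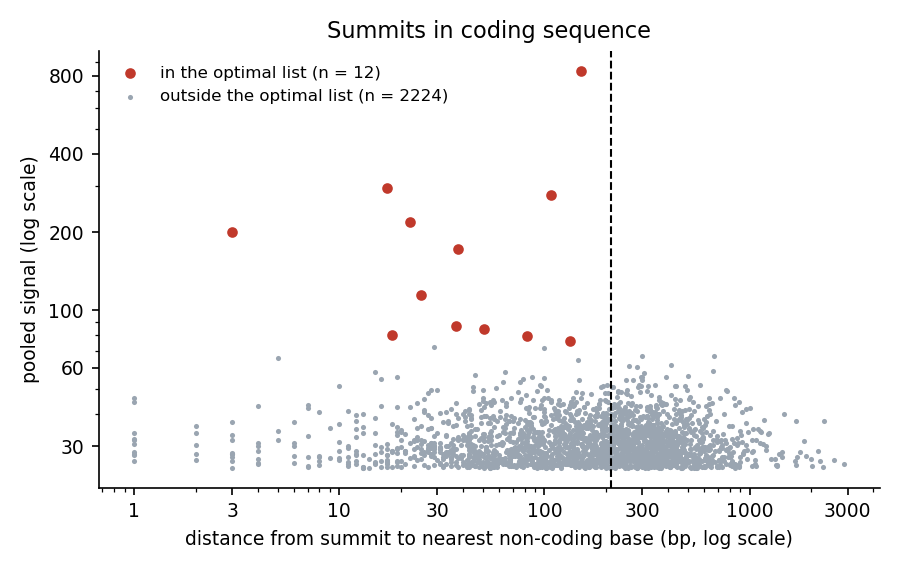
Pooled signal (y axis, log scale) of the members in coding sequence against the distance from the summit to the nearest non-coding base (x axis, bp, log scale), with the 12 optimal members in red, the 2224 others in grey and a dashed line at 212 bp. All red points lie left of the line, the furthest at 151 bp, while grey points lie on both sides.

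The strongest exonic peak of all was in otp, which codes for the homeodomain factor Orthopedia. Its peak (chr2R:20884438-20884766, dm6) had a pooled signal of 836, with 373 in replicate 2 and 469 in replicate 3. It lay in the last of 8 exons, 150 bp from the splice site and 4681 bp from the nearest TSS, which belongs to Cib2. Both replicates placed it among their own strongest peaks, at rank 49 in replicate 2 and rank 58 in replicate 3. The next coding members were Pde1c, a cyclic nucleotide phosphodiesterase gene, with 294.5 (143 in replicate 2, 153 in replicate 3) and klar with 277 (114.7 in replicate 2, 156 in replicate 3). The Pde1c summit lay 17 bp from a non-coding base in the last of 10 exons (chr2L:11816468-11816679), and the klar summit in an internal exon of 252 bp (chr3L:506000-506423). CG10357 had 218 (116 in replicate 2, 98.6 in replicate 3) and CG5895 had 200.4 (91.2 in replicate 2, 108 in replicate 3), with summits 22 and 3 bp from a non-coding base. In bif, which codes for a cytoskeletal protein of photoreceptors, the signal was 172 (75.3 in replicate 2, 99.2 in replicate 3).

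Among the 30 strongest members, 12 lay in 5' UTRs. In baz, which codes for the polarity protein Bazooka (Par-3), the peak chrX:17178538-17178857 had 571, with 248 in replicate 2 and 319 in replicate 3. It lay 18715 bp from the nearest TSS, its own, in an exon of 3624 bp that is intronic in other transcripts. A second optimal member of the same exon (chrX:17176583-17177006) had 117, with 52.9 in replicate 2 and 62.1 in replicate 3. Both replicates thus held the same order of the 2 baz peaks. Fbl6, an F-box protein gene, had 504 (215 in replicate 2, 287 in replicate 3) at 528 bp from its own TSS, near the limit of the class. Mef2, the muscle differentiation factor, had 405 (189 in replicate 2, 214 in replicate 3) at chr2R:9942887-9943105, 1768 bp from its TSS. Raf, the kinase of the receptor tyrosine kinase pathway, had 333 (130 in replicate 2, 201.2 in replicate 3) in an exon of 200 bp. The Raf peak was 424 bp wide and 47.2% exonic, and another optimal summit lay 215 bp from its own. Among the stronger baz peak and those of Fbl6, Mef2 and Raf, the lowest rank in either replicate was 590, that of Raf in replicate 2.

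Further 5' UTR members among the 30 strongest were in CAP, an adaptor protein gene (265.5, with 117 in replicate 2 and 145 in replicate 3), and ush, which codes for a partner of GATA factors (251, with 121 in replicate 2 and 124 in replicate 3). The list went on with eas, ethanolamine kinase (249, with 113 in replicate 2 and 136 in replicate 3), and cic, the repressor Capicua (241, with 110 in replicate 2 and 131 in replicate 3). CAP was the gene with the most optimal members, 3 in all, the other 2 having 95.1 and 83.2. The remaining 5' UTR members of the 30 were dop, a kinase gene, with 194, CG15247 with 190, Pi3K92E, the catalytic subunit of phosphoinositide 3-kinase, with 158, and CG8128 with 148. All 8 of these summits lay nearer than 1000 bp to a TSS: CAP at 819 bp, eas at 969 bp, ush at 589 bp, cic at 575 bp, dop at 634 bp, CG15247 at 505 bp, Pi3K92E at 573 bp and CG8128 at 530 bp.

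Peaks in 3' UTRs formed the largest kind within the optimal list. On chromosome 4, the peak chr4:1113212-1113478 had 473 (237 in replicate 2, 230 in replicate 3) and lay in exons of both sv and Cals, which run on opposite strands, so it has 2 host genes. The Pax-family factor Shaven is the product of sv and calsyntenin that of Cals. CG7872 had 344 (134 in replicate 2, 210.5 in replicate 3), by, which codes for tensin, had 335 (139 in replicate 2, 197 in replicate 3) and APC7, a subunit of the anaphase-promoting complex, had 268 (126 in replicate 2, 142 in replicate 3). All 4 peaks were high in both replicates. Next were stas with 240 (125 in replicate 2, 116 in replicate 3) and NetB, the axon guidance factor Netrin-B, with 191 (88.0 in replicate 2, 102 in replicate 3). The summit in NetB was 9723 bp from the nearest TSS, which belongs to CG5321, in an exon of 5366 bp. Smaller signals were seen in CG14505 (178.5), Tctp (170), CG33307 (159), dao (150), REG, a proteasome activator gene (148), and Bre1, the ubiquitin ligase for histone H2B (142).

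The density of exonic summits had no step at the limit of 500 bp, with 169 per Mb at 250 to 500 bp and 155 at 500 to 1000 bp, but nearer the TSS both density and strength were higher. Of the exonic summits within 250 bp of a TSS, which are promoter peaks by the rule, 20.6% were in the optimal list, with 453 summits per Mb. The share was 4.63% at 250 to 500 bp, also outside the rule. Members at 500 to 1000 bp had 3.37%, at 1000 to 2000 bp 2.89%, at 2000 to 5000 bp 2.31% and beyond 5000 bp 2.64%, and the intervals of these 4 ranges overlap. Just inside the limit were JIL-1, a histone kinase gene, at 501 bp with a signal of 78.6, CG13912 at 501 bp with 38.1 and Tango5 at 502 bp with 61.3. Just outside were CG8726 at 499 bp with 29.9, TwdlW at 500 bp with 29.4 and vilya at 500 bp with 25.1. Another TSS, of a gene that makes no protein, was within 500 bp of 73 members and of 2 in the optimal list. These were CG30015 near an antisense RNA gene and CG12831 near a tRNA gene.

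The GC content of the summit windows separated the optimal members from the others, and the gap was smaller within each kind of exon. The median of 101-base windows was 39.6% (35.6 to 41.6%) in the 83 optimal members, against 55.4% (55.4 to 56.4%) in the other 2840 and 50.5% at exonic positions taken every 500 bases. In coding sequence, the optimal members had 51.0% (45.5 to 64.4%, n = 12), against 57.4% (57.4 to 58.4%) in the others and 53.5% at the coding positions. In 5' UTRs the medians were 40.6% (33.7 to 45.5%), 43.6% (41.6 to 44.6%) and 42.6% in the same order. In 3' UTRs they were 33.7% (29.7 to 40.6%), 38.6% (37.6 to 39.6%) and 34.7%. Members outside the optimal list were thus richer in G and C than the positions in coding sequence and in 3' UTRs, beyond the interval of the median in both. The optimal members of each kind were within their interval of the positions. A lower GC content of optimal summits was not particular to exons. Optimal promoter summits had a median of 35.6%, against 40.6% for all promoter summits. The values were 33.7% against 38.6% in introns and 34.65% against 39.6% in intergenic sequence. Whether base composition takes part in the calling of weak peaks was not tested.

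**Figure D5:**
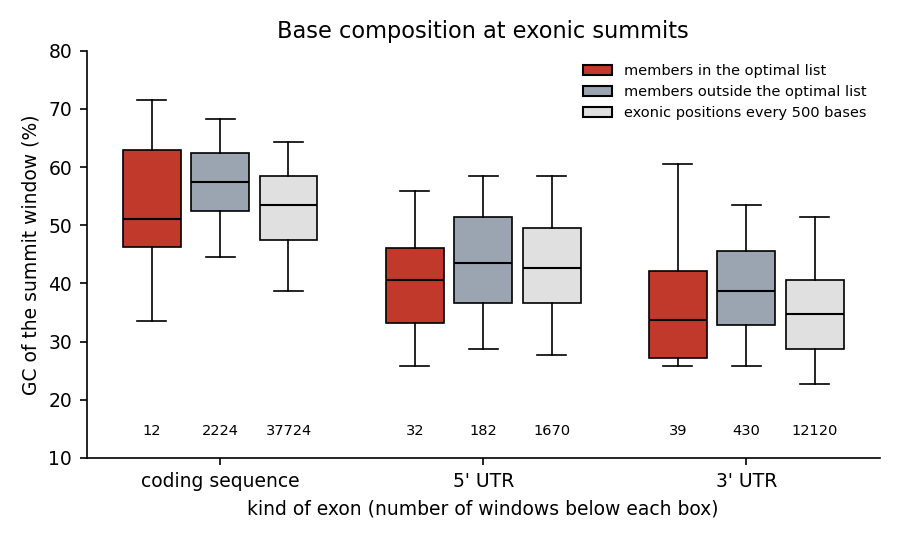
GC content (%) of 101 bp windows at the summits of optimal members (red), at those of other members (grey) and at exonic positions every 500 bases (light), by kind of exon; boxes show the median and quartiles, whiskers the 5th and 95th percentiles, and the number of windows stands below each box. Grey boxes lie above the light ones in coding sequence (57.4% against 53.5%) and in 3' UTRs (38.6% against 34.7%).

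The motifs AATAAT and TATATA were in a smaller share of members than of exonic positions, and a CAG repeat was in a larger one. Of 12 motifs searched on both strands in the 101-base windows, the repeat CAGCAGCAG was found in 3.70% of members (3.07 to 4.44%), against 2.26% of exonic positions. In coding sequence outside the optimal list it was in 4.45% (3.67 to 5.39%), against 2.80% of coding positions. Among UTR members outside the optimal list it was not more frequent than at the positions. It was in 2.75% (1.18 to 6.27%) against 3.05% in 5' UTRs and in 0.233% (0.0411 to 1.305%) against 0.479% in 3' UTRs. In the optimal list, 2 of the 32 members in 5' UTRs held it (6.25%, 1.73 to 20.15%). It was in 0 of the 39 in 3' UTRs and 0 of the 12 in coding sequence. AATAAT was in 5.51% of members (4.74 to 6.39%), against 7.46% of exonic positions, and TATATA in 1.95% (1.51 to 2.52%), against 4.61%. In the optimal members AATAAT was in 14.5% (12 of 83) and AAAAAAA in 13.3% (11 of 83), against 5.25% and 3.49% in the other members, with wide intervals of 8.47 to 23.6% and 7.56 to 22.2%. These groups differ in their kinds of exon, and within a kind the gap did not hold in 5' UTRs. There AATAAT was in 6.25% of the optimal members (1.73 to 20.15%), against 10.99% of the others, and AAAAAAA in 12.5% (4.97 to 28.1%), against 17.6%. In 3' UTRs AATAAT was in 20.5% (10.8 to 35.5%), against 16.0%, and AAAAAAA in 17.9% (8.98 to 32.7%), against 11.6%. In coding sequence AATAAT was in 2 of the 12 optimal members, against 2.70% of the others, and AAAAAAA in 0 of 12, against 0.764%. GAGAG was in 12.4% of members and in 11.9% of exonic positions. CGATA was in 9.85% of members, against 12.4% of exonic positions. TATCGATA, which holds CGATA, was in 2 members and in 3.06% of promoter summits. GAGAGAG, which holds GAGAG, was in 1.09% of members (0.777 to 1.54%), against 0.708% of exonic positions. The others differed less: CAGGTA was in 2.81% of members and 2.80% of exonic positions, CACGTG in 1.27% and 1.31%, CACACAC in 2.05% and 1.87%, and GGTCACACT in 2 members. A match describes letters in the window and is not a binding site.

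The 2923 members lay in exons of 2348 genes, 16.8% of the 13945 protein-coding genes on the main arms. Most hosts held 1 member (1851 genes), and 107 held 3 or more. The most members were in corto, a chromatin factor gene, and lola, a BTB factor gene with many isoforms, with 8 each, none in the optimal list. The strongest had a signal of 70.4 in corto and of 48.6 in lola. Next were pyd with 6 and baz, bun, CG43736, Imp, mtd, scrib and ps with 5 each, of which baz held the only optimal members. corto and Imp, an RNA-binding protein gene, have exons of over 9 kb (9294 and 9569 bp). Longer exons offer more sequence to fall in, and no host was called enriched. An optimal summit stood at a promoter of 31.0% (22.1 to 41.5%) of the 84 hosts of an optimal member and of 30.3% (28.4 to 32.2%) of the 2264 other hosts. Genes with no member had one at 18.0% (17.3 to 18.7%), and all protein-coding genes at 20.1% (19.4 to 20.7%). The groups were not matched for gene length or number of TSSs, and the cause of the gap was not tested.

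Gene groups were described from 12 lists, set beside the 16.8% of all protein-coding genes that were hosts. BTB factors were hosts in 12 of 16 genes and muscle structural genes in 13 of 21. Signalling receptors and ligands were hosts in 17 of 35, segmentation and Hox genes in 15 of 36, forkhead factors in 7 of 17, neural genes in 10 of 25 and Polycomb, trithorax and insulator genes in 12 of 34. Per Mb of exon, these lists held 106 members in muscle genes to 211 in segmentation and Hox genes, against 113 over all exons. Heat shock genes had 5 hosts of 22, cuticle genes 10 of 95 and the E(spl) complex and Notch targets 1 of 13. Their members numbered 143, 165 and 251 per Mb of exon in the same order, also against 113 over all exons. The last value rests on 2 members in 7.97 kb. The 111 replication-dependent histone genes had 0 hosts (Wilson interval up to 3.345%), but these offer only 14.9 kb of exon away from a TSS. Genes of cytoplasmic ribosomal proteins had 14 hosts of 85 with 315 members per Mb, from 15 members in 47.6 kb. RpL3 had the highest signal of these at 53.0, with 22.5 in replicate 2 and 21.3 in replicate 3.

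Of the 499 listed genes, 2 held an optimal member (0.401%, 0.110 to 1.45%), against 0.602% of all protein-coding genes. The first was elav, which codes for the RNA-binding protein of neurons, with 104 (51.9 in replicate 2, 50.3 in replicate 3) in the 3' UTR. The second was ths, an FGF ligand gene, with 81.0 (34.7 in replicate 2, 45.9 in replicate 3) in the 5' UTR. The tagged gene bab2 itself held 4 members, none optimal, the strongest in its 3' UTR with 65.6 (27.4 in replicate 2, 37.3 in replicate 3). Its paralogue bab1 held 1, with 28.5. In the Hox genes, pb had 55.9 in the 5' UTR and Antp 55.7 in the 3' UTR, both found in both replicates and both outside the optimal list.

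By chromosome arm, members numbered 91.3 per Mb of exon on X, 106.5 on 4 and between 116 and 123 on the other arms. Optimal members numbered 25 on X (5.04 per Mb), 20 on 2R (4.17 per Mb), 15 on 3R (2.44 per Mb), 14 on 3L (2.85 per Mb), 7 on 2L (1.52 per Mb) and 2 on 4 (5.46 per Mb). X thus had the lowest density of members and, after the small arm 4 with its 2 peaks, the highest density of optimal members. The density of all pooled or all optimal peaks by arm was not determined. These values are therefore not shown to be particular to exonic peaks. Another pooled summit lay within 250 bp of 17 of the 83 optimal members (20.5%, 13.2 to 30.4%), against 226 of the 2840 others (7.96%, 7.02 to 9.01%). No member had another pooled summit nearer than 199 bp, so these neighbours lay near the closest spacing seen. Whether they are separate sites was not tested, and the share in the other classes was not determined. A transposable element covered the summit of 7 members and of 0 optimal ones.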

How the data were processed

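Peak lists on dm6 were used: relaxed lists of each replicate and of both pooled, and the optimal list, all called against a control, per the README files. Aligner, peak caller, versions and depth are not given in the sources used here. Per peak, the authors deposited a signal (an enrichment of unstated scaling), a −log10 (q-value) and the summit offset in bases. Signal was used within a list only.

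Summits were classed with Ensembl 115 annotation on the release 6 assembly as promoter (a protein-coding TSS no more than 500 bp away), else exon, intron or intergenic. Lists were matched by the nearest summit within 200 bp, and the same replicate summit could match several pooled summits. Shares carry 95% Wilson intervals, their differences Newcombe intervals, medians order-statistic intervals and densities exact Poisson intervals, which cover counting error only. With 2 replicates, from separate biosamples per the labels, in 1 group, no test was made. Named were the 30 strongest members, the 3 strongest per kind of exon, up to 10 genes with 3 or more members, members beside the TSS limit, and optimal members in listed genes. Other members named were chosen after their values were seen. Members, motifs and gene lists were chosen with earlier results of these data known. Python 3.11.15 was run with scipy 1.17.1, pandas 2.3.3, matplotlib 3.10.9 and numpy 2.4.6, and classing, matching and intervals were tested on simulated data. The alternatives tried changed the TSS distance, the exon and summit definitions, the matching, the optimal list and the windows.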

Additional observations from a re-analysis of the deposited data

How the results depend on the processing

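Of 58 alternative values of 13 results, 41 stayed within 1.5 times the main count or inside the main 95% interval. The number of members ran from 2063 (over 1000 bp from a TSS) to 3506 (over 250 bp), and from 3512 to 3884 in single replicates. The share in the optimal list was 2.14% for summits exonic in every transcript and 1.23% for the stronger 50% of optimal peaks. The share in both replicate lists was 27.9% with summits within 100 bp, 43.4% with any overlap of intervals and 2.16% when each replicate was cut to its 4720 top peaks. The median signal was 30.05 over 1000 bp from a TSS and 16.0 to 16.3 in the replicates' own lists, which are on another scale. In checks added after seeing the data, coding sequence held 73.5% of members over 250 bp from a TSS, 80.1% of those exonic in every transcript and 73.5 to 80.9% of those in a single replicate. The number of strong coding summits deeper than 212 bp ran from 0 to 3 in single replicates, the 3 coming without replicate 3, that is from replicate 2. With 100 bp on each side, motif shares were 6.26% for AAAAAAA, 10.5% for AATAAT, 6.84% for CAGCAGCAG and 4.45% for TATATA, since longer windows hold more matches. The cause of the other moves was not tested. No paired analysis was possible because there is only 1 group. The relaxed lists hold background by design, read depth is unknown, and 12 optimal coding members are too few for a firm share.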
